A study of Mus musculus with 8 samples.

Results

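The genes described here were higher in *Arid1a* KO than in WT prostate tumors that received vehicle, and were back at or near the WT level in *Arid1a* KO tumors that received JSH-23, which keeps the NF-κB subunit p65 out of the nucleus. The members were selected on CPM, the count of a gene relative to all counts of the sample, in 3 of the 4 groups. A gene was a member if its mean in *Arid1a* KO tumors with vehicle was at least 5 CPM, if the lower of these 2 samples was at least 1.7 times the higher WT vehicle sample, and if its mean in *Arid1a* KO tumors with JSH-23 was at most 1.2 times the WT vehicle mean. The rule gave 131 of 39089 genes, 116 of them protein coding and 15 long noncoding RNAs. Without the condition on JSH-23 it gave 228 genes, so the members were 57.5% of the genes raised in *Arid1a* KO tumors to this extent, and 97 genes were raised but not returned. Since WT vehicle, *Arid1a* KO vehicle and *Arid1a* KO JSH-23 samples chose the members, differences among these 3 groups are given as a description, with no test. WT tumors with JSH-23 were not used by the rule, and JSH-23 against vehicle in WT tumors is the comparison that was tested. The WT vehicle samples take part in it. They are the low side of the rule and also the level that capped the *Arid1a* KO JSH-23 mean.

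The tumors came from Myc-CaP, a *Myc*-driven mouse prostate carcinoma line. Its cells carried a control vector (labelled Myc-CaP EV, here WT) or a guide RNA against *Arid1a* (labelled Myc-CaP Arid1a KO). Both grew as subcutaneous tumors in male FVB hosts that were 6 weeks old, with an intact immune system. JSH-23 was given daily by gavage for 2 weeks from day 16, and vehicle hosts received corn oil. RNA of sorted EpCAM+ CD45- cells was sequenced from 2 samples per group, in 4 groups (WT vehicle, WT JSH-23, *Arid1a* KO vehicle, *Arid1a* KO JSH-23). Whether the *Arid1a* KO line is 1 clone, and how tumors were assigned to samples, are not given in the sources used here, so the p-values measure the spread between these samples, which may be technical.

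Total counts ranged from 16401581 to 21972231, and 3 counts, taken as the lowest level told from 0, were 0.137 to 0.183 CPM (counting error only). *Arid1a* itself was 157 and 163 CPM in WT and 106 and 109 CPM in *Arid1a* KO vehicle samples, and 145 and 156 CPM against 89.7 and 91.02 CPM with JSH-23. The sorting marker *Epcam* reached at most 0.199 CPM in any sample, whereas the luminal keratin *Krt8* was found in all of them. *Krt8* was 60.4 and 51.7 CPM in WT vehicle, 116 and 115 CPM in *Arid1a* KO vehicle, 33.4 and 32.9 CPM in WT JSH-23 and 93.4 and 97.7 CPM in *Arid1a* KO JSH-23 samples. A list of 14 prostate and Myc-CaP epithelial markers, which holds the member *Elf3*, summed to 4737 to 4767 CPM, 4139 to 4184 CPM, 5916 to 5940 CPM and 5344 CPM in the same order. Of 18 leukocyte and T cell markers in the files, 16 had 3 counts or fewer in every sample, as had 12 of 17 neutrophil markers, with *S100a8*, *S100a9* and *Ly6g* among them. The summed level of 2 marker lists was higher in *Arid1a* KO than in WT vehicle samples and lower with JSH-23 in both genotypes. Their order among the 4 groups differed from that of the members. The neutrophil list summed to 106.5 to 107 CPM in WT vehicle, 148.5 to 150 CPM in *Arid1a* KO vehicle, 88.3 to 88.5 CPM in WT JSH-23 and 56.9 to 59.8 CPM in *Arid1a* KO JSH-23 samples. Of this, *Lcn2*, also made by epithelial cells, gave 106 and 105 CPM in WT vehicle samples and 149 and 148 CPM in *Arid1a* KO vehicle samples. With JSH-23, *Lcn2* gave 87.1 and 88.2 CPM in WT and 56.7 and 59.4 CPM in *Arid1a* KO samples. The list of 10 erythroid markers summed to 124 to 128, 348 to 359.7, 101 to 103 and 162 to 164 CPM in the same order, and *Tfrc*, the transferrin receptor of dividing cells in general, gave 117.5 and 117.4, 343 and 333, 93.3 and 92.7, and 148.5 and 152 CPM of it. Of the globin genes in this list, *Hba-a2* had 3 counts or fewer in every sample. *Hba-a1* was 3.24 and 4.46 CPM in WT vehicle and 11.5 and 11.4 CPM in *Arid1a* KO vehicle samples, and 4.44 and 3.90 CPM in WT and 8.47 and 7.37 CPM in *Arid1a* KO samples with JSH-23. The other globins did not rise in this way. *Hbb-bs* was 0.420 and 1.845 CPM in WT vehicle and 1.08 and 0.847 CPM in *Arid1a* KO vehicle samples. *Hbb-bt* was 0.0601 and 0.476 CPM against 0.399 and 0.0997 CPM. The part of these lists in the results was not tested. Genes with at least 1 count numbered 19833 and 20086 in the *Arid1a* KO vehicle samples and between 18075 and 18805 in the other 6 samples. In bulk samples such as these, fewer cells of a type and less RNA per cell cannot be told apart.

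NF-κB is a family of dimeric transcription factors held in the cytoplasm by inhibitor proteins and released by inflammatory signals. In the nucleus, p65-containing dimers switch on chemokines, cytokines and a set of immediate early genes. ARID1A belongs to SWI/SNF, a complex that moves nucleosomes. The CXCR2 ligands among the NF-κB targets attract neutrophils and myeloid-derived suppressor cells. The members contain some CXCR2 ligands (*Cxcl1*, *Cxcl2* and *Ppbp*), but not *Cxcl3* or *Cxcl5*, beside genes of quite different function.

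As a whole, the members took up 9622 and 9628 CPM in the *Arid1a* KO vehicle samples against 4544 and 4588 CPM in the WT vehicle samples. With JSH-23 they summed to 3844 and 3888 CPM in *Arid1a* KO tumors and to 3360 and 3387 CPM in WT tumors. The sum with JSH-23 was therefore below the WT vehicle level in both genotypes, and lowest in WT tumors. These sums are weighted to the most abundant members, above all *Txnip* and *Ddit4* (means of 1818 and 1248 CPM in *Arid1a* KO vehicle samples). Per gene, the ratio of *Arid1a* KO to WT vehicle means had a median of 2.15 (range 1.74 to 8.38), and the ratio of *Arid1a* KO JSH-23 to WT vehicle means had a median of 0.841 (range 0.047 to 1.19). Both *Arid1a* KO JSH-23 samples lay below both WT vehicle samples for 81 members, above them for 20, and overlapped with them for 30. The rule capped the *Arid1a* KO JSH-23 mean at 1.2 times the WT vehicle mean, so these counts are partly set by it. The share over all genes was not computed, and the counts are a description only.

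In WT tumors, JSH-23 lowered 70 of the 131 members and raised 2, by edgeR's quasi-likelihood test at a 1.5-fold change and a Benjamini-Hochberg adjusted p under 0.05 over all 13921 genes tested. All 131 members passed the filter on low counts. The members called lower were 53.4% of the set, against 10.2% of all genes tested and 7.4% of the 10345 genes that reached the floor of 5 CPM in the *Arid1a* KO vehicle samples, and 5.55% of all genes tested were called higher. The median log2 fold change was -0.64 over the members (range -3.17 to 0.84), -0.01 over all genes tested and 0.02 over those reaching the floor. Both WT JSH-23 samples were below both WT vehicle samples for 109 members, above them for 9 and overlapping for 13, where 39.1% of all genes tested were below and 37.2% above. Among the 97 genes that were raised in *Arid1a* KO tumors but not returned, 12 (12.4%) were called lower and 18 (18.6%) higher in WT tumors with JSH-23, with a median log2 fold change of 0.02. Returned and not returned genes were split by the WT vehicle mean, which the tested comparison shares. A high WT vehicle value favors both being returned and a fall in WT tumors.

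The 2 samples of a group were very alike (common coefficient of variation beyond counting noise 1.61%), and the calls rest on this spread. With the coefficient set to 0.2, 37 members stayed lower and 0 were higher, where edgeR's own spread gave 70 and 2 (also 70 and 2 at an unadjusted p under 0.05) and DESeq2 gave 65 and 2.

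**Figure D1:**
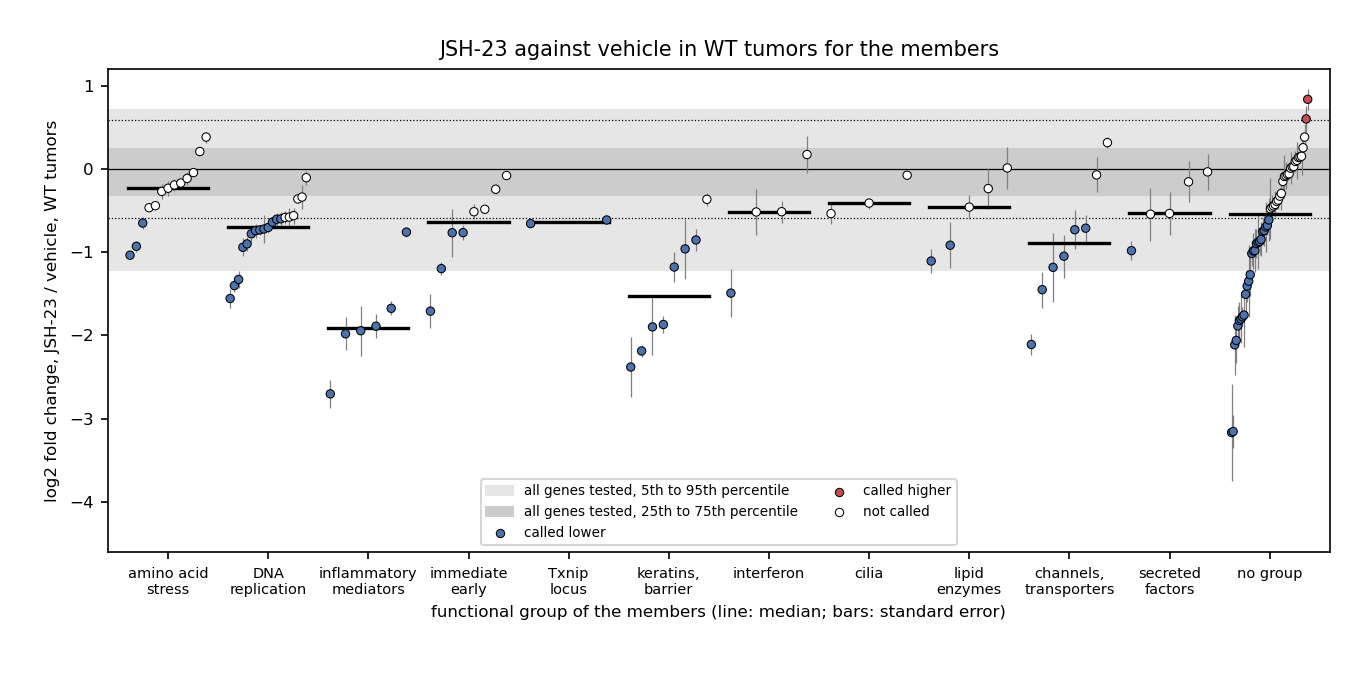
Log2 fold change of JSH-23 against vehicle in WT tumors (y axis, bars are standard errors) for the 131 members by functional group (x axis), with the median of each group as a line, filled points for the 70 members called lower and the 2 called higher, dotted lines at a 1.5-fold change and grey bands for all 13921 genes tested. The 6 inflammatory mediators all lie below the lower dotted line with a median of -1.92, whereas the amino acid stress genes lie around a median of -0.23, within the inner grey band (-0.31 to 0.24).

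A total of 81 members could be placed in 11 groups by the known function of their products. The groups were put together from the names after the members were known, and their counts are a description. The order below runs from secreted signals to transcription factors, metabolism, replication and structural genes.

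**Figure D2:**
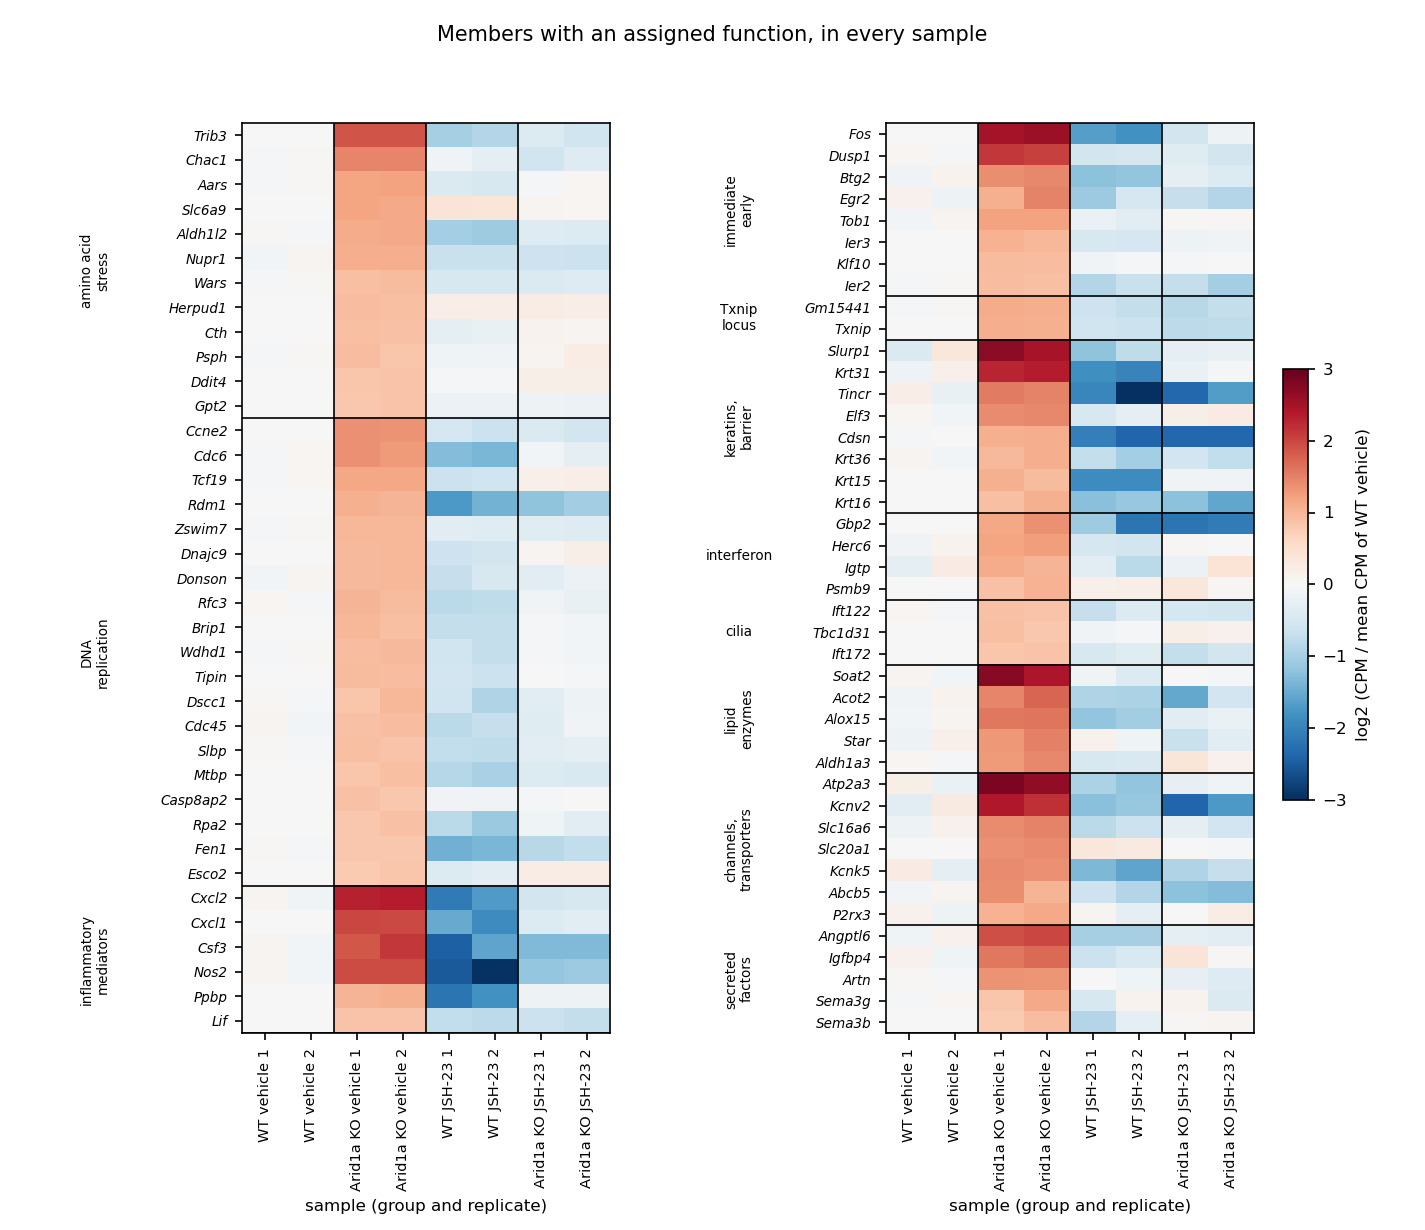
Color gives the log2 ratio of the CPM in each of the 8 samples (columns) to the mean of the WT vehicle samples for 79 of the 81 members with an assigned function (rows, ordered within a group by the *Arid1a* KO to WT ratio), with values past 3 in either direction shown at the end of the scale. The *Arid1a* KO vehicle columns are red throughout, as the rule requires. The WT JSH-23 columns are deep blue for the inflammatory mediators other than *Lif* and for *Cdsn*, *Tincr*, *Krt15* and *Krt31* among the keratin and barrier genes. They are pale for most amino acid stress genes, and darker than the *Arid1a* KO JSH-23 columns for most replication genes.

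The inflammatory mediators were the group with the largest falls in WT tumors. All 6 were downregulated by JSH-23 there, with a median log2 fold change of -1.92 (range -2.70 to -0.76), and each remained higher in *Arid1a* KO than in WT tumors under JSH-23. Over all genes tested, 26.4% had both *Arid1a* KO JSH-23 samples above both WT JSH-23 samples. *Cxcl1*, *Cxcl2* and *Ppbp* encode ligands of the chemokine receptor CXCR2. They lie together on chromosome 5 of GRCm38, *Ppbp* from 90768518 to 90770063, *Cxcl1* from 90891245 to 90893121 and *Cxcl2* from 90903899 to 90905938, with a gap of 10778 bases between the last pair. *Cxcl1* was 37.7 and 37.1 CPM in WT vehicle and 151 and 147 CPM in *Arid1a* KO vehicle samples. *Cxcl1* levels with JSH-23 were 13.1 and 10.1 CPM in WT and 28.2 and 29.5 CPM in *Arid1a* KO samples. In WT tumors the log2 fold change was -1.67 (standard error 0.085 and adjusted p = 1.73e-27). *Cxcl2* was 13.5 and 11.8 CPM in WT vehicle and 63.0 and 64.7 CPM in *Arid1a* KO vehicle samples. *Cxcl2* levels with JSH-23 were 2.92 and 3.90 CPM in WT and 8.68 and 9.06 CPM in *Arid1a* KO samples, a WT log2 fold change of -1.89 (standard error 0.15 and adjusted p = 2.48e-18). Both chemokines thus had the same order in all 4 groups, with *Arid1a* KO JSH-23 below WT vehicle and about 2.5 times above WT JSH-23 (ratios of means 2.49 and 2.60). *Ppbp* was 6.85 and 6.90 CPM in WT vehicle and 13.9 and 14.3 CPM in *Arid1a* KO vehicle samples. *Ppbp* levels with JSH-23 were 1.52 and 1.95 CPM in WT and 6.15 and 6.24 CPM in *Arid1a* KO samples. Its fall in WT tumors (log2 -1.98, standard error 0.20, adjusted p = 1.09e-13) left WT JSH-23 samples 3.57 times below *Arid1a* KO JSH-23 samples, the widest gap of the group.

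*Nos2*, inducible nitric oxide synthase (chromosome 11, 78920787 to 78960226), was 13.0 and 11.6 CPM in WT vehicle and 47.4 and 47.6 CPM in *Arid1a* KO vehicle samples. *Nos2* levels with JSH-23 were 2.14 and 1.59 CPM in WT and 5.48 and 5.74 CPM in *Arid1a* KO samples. Its log2 fold change in WT tumors, -2.70 (standard error 0.17, adjusted p = 7.64e-23), was the largest fall of a protein-coding member. *Csf3*, which encodes the granulocyte growth factor G-CSF, was 3.24 and 2.92 CPM in WT vehicle and 11.2 and 13.4 CPM in *Arid1a* KO vehicle samples. *Csf3* levels with JSH-23 were 0.562 and 1.04 CPM in WT and 1.24 and 1.23 CPM in *Arid1a* KO samples. The fall of *Csf3* in WT tumors was -1.94 on the log2 scale (standard error 0.30, adjusted p = 9.30e-08). *Lif*, a cytokine of the interleukin 6 family, started higher, at 54.7 and 53.9 CPM in WT vehicle and 97.6 and 98.4 CPM in *Arid1a* KO vehicle samples, and reached similar levels with JSH-23, 32.3 and 31.3 CPM in WT and 34.7 and 33.0 CPM in *Arid1a* KO tumors. It fell by 0.76 on the log2 scale in WT tumors (standard error 0.061, adjusted p = 1.28e-17).

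A list of 57 NF-κB target genes held 47 that were tested and 6 members (*Cxcl1*, *Cxcl2*, *Csf3*, *Lif*, *Nos2* and *Ier3*). In WT tumors JSH-23 lowered 16 of the 47 and raised 1, with a median log2 fold change of -0.39. Without the members, 11 of 41 were lower and 1 higher, with a median of -0.26. The chemokine and cytokine list, which shares 4 of these members, had 11 of 34 tested genes lower and 2 higher, and 7 of 30 lower and 2 higher without the members. *Rela*, which encodes p65, was 82.04 and 82.06 CPM in WT vehicle and 99.4 and 105.5 CPM in *Arid1a* KO vehicle samples. *Rela* levels with JSH-23 were 61.0 and 57.3 CPM in WT and 52.0 and 50.6 CPM in *Arid1a* KO samples, and *Nfkbia*, which encodes the inhibitor IκBα and is itself an NF-κB target, moved the other way, from 353 and 355 CPM in WT vehicle to 525 and 529 CPM in WT JSH-23 samples (log2 0.58, standard error 0.021, adjusted p = 9.58e-36), just under the 1.5-fold threshold.

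The promoters of *Cxcl1* and *Cxcl2* hold the same NF-κB letters at a similar distance from the start site, and those of *Ier3* and *Elf3* hold a match to the NF-κB consensus on the opposite strand. They are shown because *Cxcl1* and *Cxcl2* fell far in WT tumors while *Ier3* and *Elf3* did not reach 1.5-fold, and were chosen after the matches and values were seen. Each stretch of 100 bases (RefSeq, GRCm38.p6) is written 5′ to 3′ on the strand of the gene and ends upstream of its start site, with the match in capitals.
Cxcl1, chr5:90891129-90891228, + strand, match beginning at -71: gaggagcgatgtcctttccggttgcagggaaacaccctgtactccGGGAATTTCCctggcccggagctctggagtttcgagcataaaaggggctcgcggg
Cxcl2, chr5:90903757-90903856, + strand, match beginning at -97: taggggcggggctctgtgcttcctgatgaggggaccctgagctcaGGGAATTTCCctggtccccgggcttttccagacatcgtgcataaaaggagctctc
Ier3, chr17:35821576-35821675, + strand, match beginning at -92: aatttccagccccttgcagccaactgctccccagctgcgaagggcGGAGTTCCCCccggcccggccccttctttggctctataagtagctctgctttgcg
Elf3, chr1:135258526-135258625, - strand, match beginning at -108: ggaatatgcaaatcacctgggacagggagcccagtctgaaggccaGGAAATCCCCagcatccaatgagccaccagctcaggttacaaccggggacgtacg
Promoter windows of 250 bases before and 50 bases after a start site were found for 92 members, 112 windows in all. Some windows overlap, so a site can be counted more than once. A match to the NF-κB consensus, searched on both strands, was in 9 of them (8.0%), against 5.1% of the 14055 windows of tested genes and 4.5% of all 32851 windows. The AP-1 letters TGANTCA were in 8.9% of the member windows and 5.8% of those of tested genes, and the E-box CACGTG in 8.9% and 9.7%. The amount by which these 4 genes fell in WT tumors differed widely, from -1.89 and -1.67 for *Cxcl2* and *Cxcl1* to -0.48 for *Ier3* and -0.37 for *Elf3*, and the latter pair did not reach the 1.5-fold threshold.

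The immediate early and antiproliferative genes are switched on within minutes of growth or stress signals and include transcription factors (*Fos*, *Egr2*, *Klf10*), a phosphatase of MAP kinases (*Dusp1*) and growth-restraining factors (*Btg2*, *Tob1*). Of 8 such members, 4 (*Fos*, *Btg2*, *Ier2* and *Egr2*) were downregulated in WT tumors under JSH-23 and none upregulated, with a median log2 fold change of -0.64. The WT JSH-23 samples of all 8 were below their WT vehicle samples, as they were for 39.1% of all genes tested. *Fos* was 5.95 and 6.01 CPM in WT vehicle and 33.8 and 35.6 CPM in *Arid1a* KO vehicle samples. *Fos* levels with JSH-23 were 1.91 and 1.71 CPM in WT and 4.08 and 5.37 CPM in *Arid1a* KO samples. It had the widest *Arid1a* KO to WT vehicle ratio of the group, 5.80, and a log2 fold change of -1.71 in WT tumors (standard error 0.20, adjusted p = 4.01e-11). *Btg2* was 34.1 and 39.2 CPM in WT vehicle and 95.9 and 98.8 CPM in *Arid1a* KO vehicle samples. *Btg2* levels with JSH-23 were 15.6 and 16.2 CPM in WT and 29.7 and 27.7 CPM in *Arid1a* KO samples, a WT log2 fold change of -1.20 (standard error 0.081 and adjusted p = 3.79e-21). *Dusp1* had a vehicle ratio of 4.26 and came to overlapping levels with JSH-23, 16.3 and 16.8 CPM in WT and 18.5 and 16.2 CPM in *Arid1a* KO tumors. Its change in WT tumors, from 24.7 and 22.9 CPM, was -0.51 on the log2 scale (adjusted p = 6.93e-07), short of 1.5-fold. *Egr2*, low at 2.76 and 2.26 CPM in WT vehicle samples, had a log2 fold change of -0.77 (adjusted p = 0.0207) that DESeq2 did not call (adjusted p = 0.0889) and that lost its call without WT JSH-23 replicate 1 (-0.49, adjusted p = 0.239) or WT vehicle replicate 1 (-0.61, adjusted p = 0.157).

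A list of 44 AP-1 and immediate early genes gave 10 lower and 2 higher of 38 tested in WT tumors, with a median of -0.24, and held 7 of the members. Without them, 6 of 31 were lower and 2 higher. The cAMP response element TGACGTCA, a palindrome bound by CREB and ATF proteins, stood in the promoters of *Btg2* and *Dusp1*, which are printed here because the pair differed in how far they fell in WT tumors.
Btg2, chr1:134079268-134079367, - strand, match beginning at -166: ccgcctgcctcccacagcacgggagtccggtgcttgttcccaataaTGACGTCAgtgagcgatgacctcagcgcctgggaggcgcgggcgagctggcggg
Dusp1, chr17:26508562-26508661, - strand, match beginning at -143: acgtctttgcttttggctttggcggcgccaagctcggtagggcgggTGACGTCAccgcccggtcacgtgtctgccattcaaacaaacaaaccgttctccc
These letters were in 4 of the 112 member windows (3.6%), against 2.9% of the windows of tested genes.

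Most amino acid stress genes had small differences in WT tumors. Both WT JSH-23 samples were below both WT vehicle samples for 11 of the 13, and for 39.1% of all genes tested. Cells short of amino acids, or with unfolded proteins, raise the transcription factor ATF4, which switches on genes for amino acid supply and for one-carbon units derived from serine. Of the 13 members with such functions, 3 (*Aldh1l2*, *Trib3* and *Nupr1*) were downregulated in WT tumors under JSH-23 and none was upregulated (23.1% lower, median log2 fold change -0.23, range -1.04 to 0.38). *Trib3*, a pseudokinase induced by ATF4, was 45.9 and 44.9 CPM in WT vehicle and 167 and 169 CPM in *Arid1a* KO vehicle samples. *Trib3* levels with JSH-23 were 22.7 and 24.8 CPM in WT and 34.2 and 30.1 CPM in *Arid1a* KO samples, and fell by 0.93 on the log2 scale in WT tumors (standard error 0.068, adjusted p = 1.60e-19). *Aldh1l2*, a mitochondrial enzyme of folate metabolism, was 90.7 and 86.8 CPM in WT vehicle and 192 and 195 CPM in *Arid1a* KO vehicle samples. *Aldh1l2* levels with JSH-23 were 43.5 and 42.4 CPM in WT and 67.4 and 67.2 CPM in *Arid1a* KO samples, the largest fall of the group in WT tumors (log2 -1.04, standard error 0.049, adjusted p = 2.03e-29). *Nupr1*, a stress-induced nuclear protein, had a log2 fold change of -0.65 in WT tumors (adjusted p = 2.10e-12) that was under 1.5-fold without WT vehicle replicate 2 (-0.57, adjusted p = 4.02e-08).

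The other members of this group were not called in WT tumors. Among them, *Wars* was at 0.719 of the WT vehicle mean in WT JSH-23 and 0.752 in *Arid1a* KO JSH-23 samples, and *Aars* at 0.731 and 0.997. *Ddit4*, an inhibitor of mTORC1 signaling and the member with the highest level per length (1823 TPM in *Arid1a* KO vehicle), was 686 and 706 CPM in WT vehicle and 1242 and 1255 CPM in *Arid1a* KO vehicle samples. *Ddit4* levels with JSH-23 were 672 and 669 CPM in WT and 788 and 791 CPM in *Arid1a* KO samples. *Chac1*, which degrades glutathione, was 30.0 and 31.7 CPM in WT vehicle and 85.8 and 85.6 CPM in *Arid1a* KO vehicle samples. *Chac1* levels with JSH-23 were 28.2 and 25.3 CPM in WT and 20.5 and 23.6 CPM in *Arid1a* KO samples. Their log2 fold changes in WT tumors were -0.04 and -0.19, neither past 1.5-fold. *Gpt2* (alanine transaminase), *Psph* (serine synthesis) and *Cth* (cysteine synthesis) had changes between -0.23 and -0.11, and the alanine and tryptophan tRNA ligases *Aars* and *Wars* had -0.44 and -0.47. *Herpud1*, a protein of endoplasmic reticulum-associated degradation, and the glycine transporter *Slc6a9* had both WT JSH-23 samples above both WT vehicle samples. *Herpud1* was 98.6 and 96.6 CPM in WT vehicle, 186 and 182 CPM in *Arid1a* KO vehicle, and between 111 and 114 CPM in the 4 JSH-23 samples of both genotypes.

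The list of integrated stress and unfolded protein response genes held 9 members, and of its 40 tested genes 3 were lower and 1 higher in WT tumors, with a median of -0.06. The 3 lower genes were all members, and the 31 other tested genes had a median of -0.02. *Atf4* itself, not a member, was 249 and 242 CPM in WT vehicle and 512 and 502 CPM in *Arid1a* KO vehicle samples. *Atf4* levels with JSH-23 were 277 and 275 CPM in WT and 307 and 313 CPM in *Arid1a* KO samples. *Asns*, asparagine synthetase, lay just outside the rule with a ratio of *Arid1a* KO JSH-23 to WT vehicle means of 1.21. The ATF4-type letters TGATGNAA, chosen after the members were known, were in 10 of the 112 member promoter windows (8.9%), against 2.2% of the windows of tested genes and 4.0% of all windows. The overlapping windows of *Fbxo48* and *Eldr* hold the same match, so this site was counted more than once. The promoters of 4 members of the group that carry them upstream of the start site, each on the opposite strand, are shown because they share the 8 letters while their WT responses ran from a fall to a small difference upward.
Chac1, chr2:119351003-119351102, + strand, match beginning at -193: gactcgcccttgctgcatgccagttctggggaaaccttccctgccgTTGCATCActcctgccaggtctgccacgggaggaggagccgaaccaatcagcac
Nupr1, chr7:126625527-126625626, - strand, match beginning at -110: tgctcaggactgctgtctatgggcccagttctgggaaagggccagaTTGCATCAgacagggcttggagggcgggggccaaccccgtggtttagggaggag
Herpud1, chr8:94386271-94386370, + strand, match beginning at -112: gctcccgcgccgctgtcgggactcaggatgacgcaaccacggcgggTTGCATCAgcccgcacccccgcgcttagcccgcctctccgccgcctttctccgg
Aars, chr8:111033684-111033783, + strand, match beginning at -112: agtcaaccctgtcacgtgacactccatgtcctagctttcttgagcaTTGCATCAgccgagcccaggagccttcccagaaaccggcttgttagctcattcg
The *Aars* stretch lies inside the annotated span of the gene (111027778 to 111055569), so the start site meant there is not the first base of that span. The log2 fold changes of these genes in WT tumors were -0.65 for *Nupr1*, -0.44 for *Aars*, -0.19 for *Chac1* and 0.21 for *Herpud1*.

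The DNA replication and S phase genes were the largest group, with 19 members. Their products license and fire replication origins (*Cdc6*, *Cdc45*, *Donson*), drive entry into S phase (*Ccne2*), load and process the clamp and Okazaki fragments (*Rfc3*, *Fen1*), protect single-stranded DNA (*Rpa2*), hold sister chromatids together (*Esco2*, *Dscc1*), repair forks (*Brip1*, *Tipin*) and supply histones (*Slbp*, *Dnajc9*). In WT tumors 13 of the 19 were downregulated by JSH-23 and none upregulated, with a median log2 fold change of -0.70 (range -1.56 to -0.11). Both WT JSH-23 samples were below both WT vehicle samples for all 19, and for 39.1% of all genes tested. *Arid1a* KO tumors with JSH-23 were closer to WT vehicle, with a median ratio of 0.859 under the rule's ceiling of 1.2. Their samples were above the WT JSH-23 samples for 17 of the 19, where 26.4% of all genes tested were above and 45.5% below. The *Arid1a* KO JSH-23 samples helped to choose the members, so these values are a description. *Fen1* was 41.1 and 39.8 CPM in WT vehicle and 71.1 and 71.3 CPM in *Arid1a* KO vehicle samples. *Fen1* levels with JSH-23 were 14.8 and 15.7 CPM in WT and 22.9 and 24.4 CPM in *Arid1a* KO samples, a WT log2 fold change of -1.40 (standard error 0.079 and adjusted p = 4.69e-25). *Cdc6* was 21.7 and 23.6 CPM in WT vehicle and 58.7 and 54.7 CPM in *Arid1a* KO vehicle samples. *Cdc6* levels with JSH-23 were 9.22 and 8.72 CPM in WT and 21.4 and 18.8 CPM in *Arid1a* KO samples. Its fall of -1.33 in WT tumors (standard error 0.10, adjusted p = 3.86e-18) left the *Arid1a* KO JSH-23 mean 2.24 times the WT JSH-23 mean, the widest ratio of the group. *Rdm1*, a RAD52-related protein, had the largest fall (log2 -1.56, standard error 0.11, adjusted p = 5.44e-20), from 21.4 and 21.7 CPM to 6.58 and 8.05 CPM. *Casp8ap2*, needed for histone gene expression, stayed at 24.2 and 24.7 CPM with vehicle and 22.6 and 22.6 CPM with JSH-23 in WT tumors (log2 -0.11, adjusted p = 0.281). *Tcf19*, *Tipin*, *Wdhd1* and *Dscc1* were called with changes close to 1.5-fold. They were under it without WT JSH-23 replicate 2 (*Tipin* -0.57, *Wdhd1* -0.58 and *Dscc1* -0.58), WT JSH-23 replicate 1 (*Tcf19* -0.57), WT vehicle replicate 1 (*Tipin* -0.57) or WT vehicle replicate 2 (*Tcf19* -0.55).

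A list of 50 replication genes, all tested, held 7 members and gave 24 genes lower and 1 higher with JSH-23 in WT tumors, with a median of -0.58. Without the members, 18 of 43 were lower and 1 higher (median -0.56). *Pcna*, the sliding clamp, showed the same order without being a member, with 144 and 144 CPM in WT vehicle and 235 and 235 CPM in *Arid1a* KO vehicle samples. *Pcna* levels with JSH-23 were 70.2 and 73.4 CPM in WT and 115 and 118 CPM in *Arid1a* KO samples. None of the 47 tested genes on a mitosis list was a member, and 1 was lower and none higher in WT tumors (median -0.03). *Mki67*, a marker of cycling cells, was 486 and 483 CPM in WT vehicle and 532 and 529 CPM in *Arid1a* KO vehicle samples. *Mki67* levels with JSH-23 were 548 and 553 CPM in WT and 625 and 631 CPM in *Arid1a* KO samples.

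*Txnip*, which restrains glucose uptake and binds thioredoxin, lies on chromosome 3 from 96557957 to 96561857 (+ strand), inside the span of the long noncoding RNA *Gm15441* on the opposite strand (96555768 to 96566801). *Txnip* was 858 and 871 CPM in WT vehicle and 1828 and 1808 CPM in *Arid1a* KO vehicle samples. *Txnip* levels with JSH-23 were 568 and 555 CPM in WT and 505 and 510 CPM in *Arid1a* KO samples, and *Gm15441* was 93.0 and 96.2, 205 and 202, 61.9 and 57.3, and 53.4 and 57.9 CPM in the same order. The ratios of the overlapping pair were alike in each comparison, 2.10 and 2.15 for *Arid1a* KO against WT vehicle, 0.587 and 0.588 for *Arid1a* KO JSH-23 against WT vehicle, and 0.649 and 0.629 for WT JSH-23 against WT vehicle. Reads of overlapping genes on opposite strands are told apart only by the strand setting of the counting. The methods give it as strand-specific, but the submitters' processing notes name a different aligner, so the setting of these counts is uncertain. The part of shared reads in these ratios was not tested. Both were downregulated by JSH-23 in WT tumors (*Txnip* log2 -0.61, standard error 0.017, adjusted p = 4.70e-42), and with JSH-23 *Txnip* was lower in *Arid1a* KO samples. The adjusted p of *Txnip* was 0.246 when the coefficient of variation was set to 0.2.

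**Figure D3:**
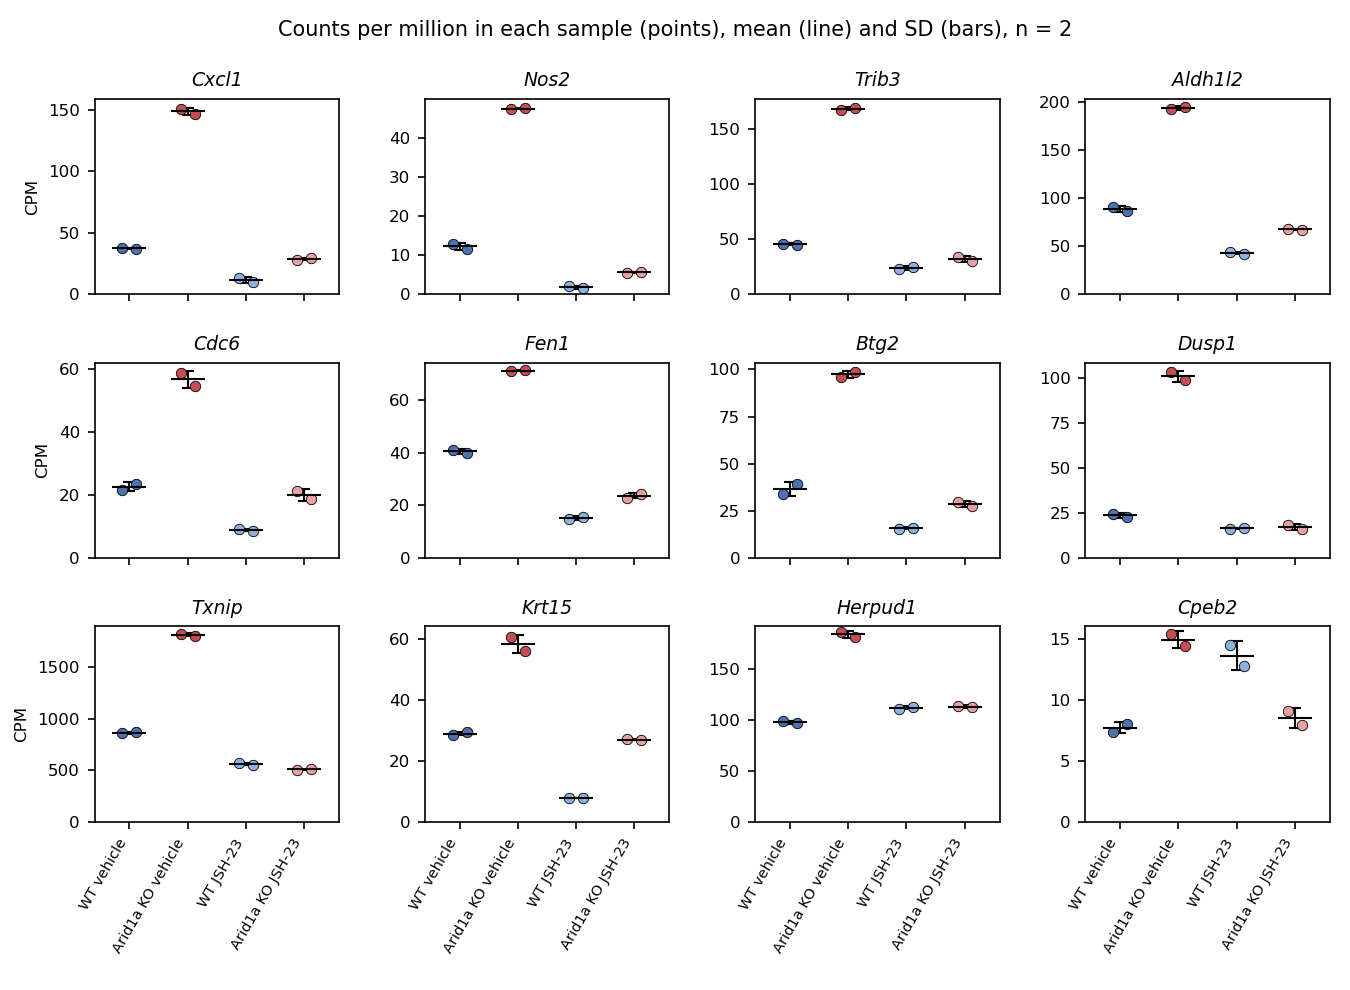
CPM (y axes, from 0) of 12 members in each of the 8 samples, with points for samples, a line for the mean and bars for the SD of the 2 samples of a group. *Cxcl1*, *Nos2*, *Trib3*, *Aldh1l2*, *Cdc6*, *Fen1*, *Btg2* and *Krt15* are lowest in WT JSH-23, *Dusp1* meets at 16.2 to 18.5 CPM and *Herpud1* at 111 to 114 CPM with JSH-23 in either genotype, *Txnip* is lowest in *Arid1a* KO JSH-23, and *Cpeb2* is higher with JSH-23 than with vehicle in WT samples.

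Among keratins and genes of the squamous skin barrier, 7 of 8 members were downregulated by JSH-23 in WT tumors (median log2 fold change -1.52). The type I keratins among them lie in 1 cluster on chromosome 11, with *Krt31* (100046646 to 100050551), *Krt36* (100102012 to 100109487), *Krt15* (100131759 to 100135949) and *Krt16* (100246091 to 100248902), a family in which reads of related sequence can be shared. *Krt15*, a keratin of basal and progenitor cells, was 28.5 and 29.3 CPM in WT vehicle and 60.7 and 56.3 CPM in *Arid1a* KO vehicle samples. *Krt15* levels with JSH-23 were 7.87 and 7.87 CPM in WT and 27.1 and 26.8 CPM in *Arid1a* KO samples. JSH-23 thus took *Krt15* to the WT vehicle level in *Arid1a* KO tumors, while in WT tumors it fell by 1.87 on the log2 scale (standard error 0.099, adjusted p = 1.52e-26), a ratio of 3.43 between the genotypes with JSH-23. *Cdsn*, the adhesion protein corneodesmosin, fell to one level in both, from 67.1 and 69.3 CPM in WT vehicle and 144 and 145 CPM in *Arid1a* KO vehicle samples to 16.5 and 13.1 CPM in WT JSH-23 and 13.4 and 13.2 CPM in *Arid1a* KO JSH-23 samples. In WT tumors its log2 fold change was -2.19 (standard error 0.071 and adjusted p = 9.75e-39). The long noncoding RNA *Tincr*, which promotes epidermal differentiation, went from 3.003 and 2.26 CPM to 0.674 and 0.305 CPM in WT tumors (log2 -2.38, standard error 0.36, adjusted p = 5.68e-08). *Slurp1*, a secreted epidermal peptide with one of the widest *Arid1a* KO to WT vehicle ratios of all members (6.01), had a log2 fold change of -0.96 in WT tumors (adjusted p = 0.0192) that DESeq2 did not call (adjusted p = 0.0579) and that lost its call without WT vehicle replicate 2 (-0.52, adjusted p = 0.371) or WT JSH-23 replicate 1 (-0.75, adjusted p = 0.153). A list of 25 keratins and neurofilaments, which held only *Krt15* of these, gave 10 lower and 3 higher of 19 tested, with a median of -0.96 (-0.85 without *Krt15*).

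Channels and transporters made up 8 members, of which 6 were downregulated in WT tumors and none upregulated. *Atp2a3*, a calcium pump of the endoplasmic reticulum, had the third largest *Arid1a* KO to WT vehicle ratio of all members (6.72), with 3.30 and 2.56 CPM in WT vehicle and 20.7 and 18.6 CPM in *Arid1a* KO vehicle samples. *Atp2a3* levels with JSH-23 were 1.52 and 1.28 CPM in WT and 2.48 and 2.73 CPM in *Arid1a* KO samples (log2 -1.05 in WT tumors, standard error 0.26, adjusted p = 3.46e-04). *Kcnk5*, a potassium channel, fell (log2 -1.45, adjusted p = 2.71e-08). The phosphate transporter *Slc20a1* went the other way, at 29.1 and 29.3 CPM in WT vehicle and 75.8 and 77.8 CPM in *Arid1a* KO vehicle samples. *Slc20a1* levels with JSH-23 were 37.0 and 35.2 CPM in WT and 29.3 and 27.9 CPM in *Arid1a* KO samples, a difference of 0.32 in WT tumors (adjusted p = 8.19e-05) that was short of 1.5-fold. The calls of *Kcnv2* and *Abcb5* were lost without WT vehicle replicate 2 (*Kcnv2* -0.87, adjusted p = 0.161, and *Abcb5* -0.65, adjusted p = 0.0566). They were also lost without a WT JSH-23 sample, *Kcnv2* without replicate 1 (-1.12, adjusted p = 0.0615) and *Abcb5* without replicate 2 (-0.60, adjusted p = 0.0691). *Slc16a6* was under 1.5-fold without WT vehicle replicate 2 (-0.56, adjusted p = 0.0156).

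The smaller groups were mixed. Among 4 interferon-inducible members only *Gbp2*, a guanylate-binding GTPase, was downregulated in WT tumors (log2 -1.49, standard error 0.28, adjusted p = 6.75e-06), from 3.30 and 3.33 CPM to 1.57 and 0.732 CPM. *Igtp*, *Herc6* and the immunoproteasome subunit *Psmb9* had changes of -0.52, -0.51 and 0.17. A list of interferon-stimulated genes gave 9 lower and 2 higher of 42 tested, 1 of the lower genes being a member. Among 5 lipid, steroid and retinoid enzymes, *Alox15*, a lipoxygenase, was downregulated (log2 -1.11, adjusted p = 9.52e-10), as was the acyl-CoA thioesterase *Acot2* (log2 -0.92, adjusted p = 0.00381), whose reads can be shared with its close paralogs. *Soat2*, a cholesterol acyltransferase, was 2.76 and 2.44 CPM in WT vehicle and 17.3 and 13.9 CPM in *Arid1a* KO vehicle samples. *Soat2* levels with JSH-23 were 2.42 and 1.95 CPM in WT and 2.58 and 2.50 CPM in *Arid1a* KO samples, so that all groups but *Arid1a* KO vehicle were alike (log2 -0.24 in WT tumors, adjusted p = 0.423). Of 5 secreted growth and guidance factors, only the angiopoietin-like factor *Angptl6* was downregulated in WT tumors, from 15.7 and 18.6 CPM to 8.66 and 8.60 CPM (log2 -0.98, standard error 0.11, adjusted p = 7.67e-12). *Artn*, *Igfbp4*, *Sema3b* and *Sema3g* were below 9 CPM in all samples and had changes between -0.54 and -0.04. None of 3 members for ciliary transport and the centrosome (*Ift172*, *Ift122* and *Tbc1d31*) was called.

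Of the 50 members without a group, 25 were lower and 2 higher in WT tumors with JSH-23. The largest falls were of long noncoding RNAs. *Gm39423* went from 1.501 and 1.25 CPM to 0.281 and 0 CPM (5 and 0 counts, log2 -3.17, standard error 0.58, adjusted p = 3.36e-06), and *Gm30247* from 10.3 and 9.70 CPM to 0.899 and 1.34 CPM (log2 -3.15, standard error 0.20, adjusted p = 3.77e-22). *Gm35456*, also noncoding, and the protein-coding *2610528A11Rik* followed at -2.11 and -2.06, and *2610528A11Rik* had the widest ratio of *Arid1a* KO to WT tumors with JSH-23 of all members, 3.73. The widest *Arid1a* KO to WT vehicle ratios were those of the low-level genes *Sspo* (8.38), which encodes SCO-spondin, and *Sh2d6* (8.06), an adaptor protein. *Sspo* was 1.08 and 1.55 CPM in WT vehicle and 11.5 and 10.5 CPM in *Arid1a* KO vehicle samples. *Sspo* levels with JSH-23 were 0.955 and 0.915 CPM in WT and 0.672 and 1.68 CPM in *Arid1a* KO samples (log2 -0.48 in WT tumors, adjusted p = 0.274). *Sh2d6* was called lower in WT tumors (adjusted p = 0.00582), but not without WT JSH-23 replicate 1 (-1.20, adjusted p = 0.053) or WT vehicle replicate 2 (-0.74, adjusted p = 0.28). *Odc1*, the first enzyme of polyamine synthesis, stayed between 53.7 and 59.2 CPM in all 4 WT samples, against 116 and 109 CPM in *Arid1a* KO vehicle and 66.8 and 66.5 CPM in *Arid1a* KO JSH-23 samples.

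*Cd68*, a lysosomal glycoprotein used as a macrophage marker, was a member, at 6.61 and 7.56 CPM in WT vehicle and 17.1 and 18.8 CPM in *Arid1a* KO vehicle samples. *Cd68* levels with JSH-23 were 5.51 and 4.94 CPM in WT and 8.53 and 6.96 CPM in *Arid1a* KO samples. The list of 26 macrophage and dendritic cell markers, *Cd68* included, summed to 39.7 and 42.01 CPM in WT vehicle and 35.8 and 39.4 CPM in *Arid1a* KO vehicle samples, so the list was not higher in *Arid1a* KO than in WT tumors with vehicle. With JSH-23 the list summed to 20.7 and 35.5 CPM in WT and to 17.5 and 19.9 CPM in *Arid1a* KO samples. *Adgre1*, which encodes F4/80, was listed at 0 CPM in both *Arid1a* KO vehicle samples and in 1 of the *Arid1a* KO JSH-23 samples. The 2 WT JSH-23 samples differed widely in this sum, and its part in the WT comparison was not tested.

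The 2 members called higher in WT tumors with JSH-23 were *Cpeb2*, an RNA-binding regulator of translation, and *Extl1*, a glycosyltransferase of heparan sulfate synthesis. *Cpeb2* was 7.39 and 8.03 CPM in WT vehicle and 15.4 and 14.5 CPM in *Arid1a* KO vehicle samples. *Cpeb2* levels with JSH-23 were 14.5 and 12.8 CPM in WT and 9.09 and 7.97 CPM in *Arid1a* KO samples. JSH-23 thus brought the WT samples to near the *Arid1a* KO vehicle level (log2 0.84, standard error 0.12, adjusted p = 2.93e-08), in the opposite direction to the fall that the rule required in *Arid1a* KO tumors. *Extl1* was 5.77 and 5.53 CPM in WT vehicle and 14.6 and 14.4 CPM in *Arid1a* KO vehicle samples. *Extl1* levels with JSH-23 were 8.60 and 8.41 CPM in WT and 4.19 and 7.28 CPM in *Arid1a* KO samples (log2 0.60, standard error 0.16, adjusted p = 0.00106). Its change was under 1.5-fold without WT vehicle replicate 2 (0.57). The call was also lost with at least 10 counts in every sample (0.585). Limma did not call it on log2(TPM + 0.1) (0.55, adjusted p = 0.0719) or on log2(TPM + 1) (0.45, adjusted p = 0.0605).

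Under JSH-23, the members' levels in the genotypes were closer together by the median than with vehicle (ratio 2.15) but were not equal. For some members, among them *Krt15*, *Ppbp* and *2610528A11Rik*, the ratio of *Arid1a* KO to WT was wider with JSH-23 than with vehicle. The rule required a wide ratio with vehicle and capped the *Arid1a* KO JSH-23 mean, so a narrower median is favored by it. The ratio of *Arid1a* KO to WT JSH-23 means had a median of 1.21 and ranged from 0.162 for the long noncoding RNA *Gm30215* to 3.73, with 46 members within 1.2-fold, 39 at 1.5-fold or more and 7 at least 1.5-fold lower. Both *Arid1a* KO JSH-23 samples lay above both WT JSH-23 samples for 74 members, below for 21 and overlapping for 36, where 26.4% of all genes tested were above and 45.5% below. The *Arid1a* KO JSH-23 samples helped to choose the members, so this is a description. By group, the median ratio was 2.55 for the inflammatory mediators, 1.497 for the replication genes, 1.43 for keratins and barrier genes, 1.05 for the amino acid stress genes and 0.976 for channels and transporters. The size of the fall was larger as a ratio in *Arid1a* KO than in WT tumors for 127 of the 131 members, a direction favored by the rule.

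**Figure D4:**
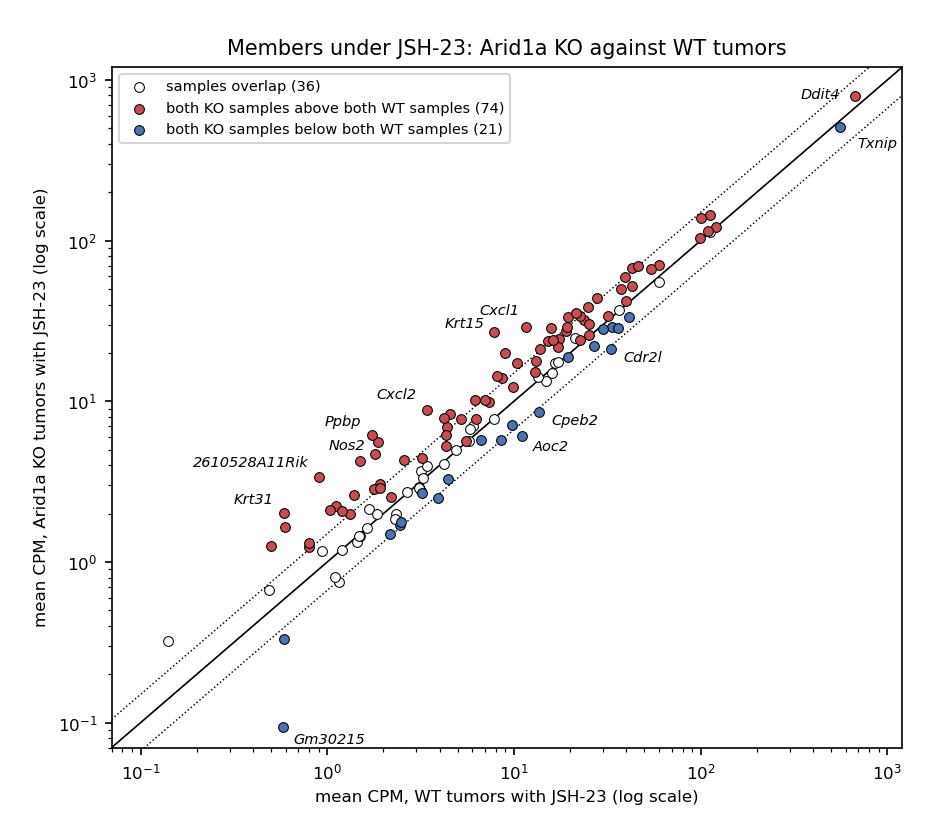
Mean CPM with JSH-23 of the 131 members in *Arid1a* KO tumors (y axis, log scale) against WT tumors (x axis, log scale), with a solid line at equal levels, dotted lines at a 1.5-fold difference and color by whether the 2 samples of each group overlapped. The 74 red points above the line include *Cxcl1*, *Cxcl2*, *Ppbp*, *Nos2* and *Krt15*, and the 21 blue points below it include *Txnip*, *Cpeb2* and *Gm30215*.

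In the genome, 26 of the 131 members (19.8%) were on chromosome 11, which carries 8.8% of the genes tested. They included *Nos2*, *Csf3*, *Lif*, *Cdc6*, *Brip1*, *Rdm1*, *Tob1*, *Alox15*, *Cd68* and the keratin cluster. Over the 905 genes of chromosome 11 that reached 5 CPM in *Arid1a* KO vehicle samples and were not members, the median log2 ratio of *Arid1a* KO to WT vehicle was 0.12, against 0.02 over all 10345 such genes of the genome, and the median log2 ratio of *Arid1a* KO JSH-23 to *Arid1a* KO vehicle was -0.09 against -0.08. The part of this chromosome-wide difference in the choice of members was not tested. Apart from the chemokines, the keratins and the *Txnip* locus, neighbors among the members included the overlapping pairs *Eldr* and *Fbxo48* and *Gm45916* and *Slc16a6*, each on opposite strands, and *Hyal3* and *Sema3b*, 10315 bases apart.

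At the edges of the rule, the members with the lowest *Arid1a* KO vehicle means were *Sema3b* (5.03 CPM), *Snx32* (5.36 CPM) and *Igtp* (5.38 CPM), and *Adcy3*, *Aqp5* and *Krtcap3* missed at 4.98, 4.94 and 4.88 CPM. For the ratio of the lower *Arid1a* KO to the higher WT vehicle sample, *Dcst2*, *Esco2* and *4921525O09Rik* were inside at 1.7, 1.701 and 1.702, and *Thsd1* and *Cars* were outside at 1.694 each. For the ratio of *Arid1a* KO JSH-23 to WT vehicle means, *Gm3336*, *Itprip* and *Aldh1a3* were inside at 1.19, 1.18 and 1.18, and *Snx11*, *Zfp36l1* and *Asns* were outside at 1.204, 1.207 and 1.208. With library sizes scaled by TMM the same rule gave 109 genes, all of them members, and with TPM in place of CPM it gave 147 genes, 110 of them members.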

How the data were processed

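Gene counts from RNA-seq of sorted tumor cells were analysed for 8 samples in 4 groups, assigned from the sample labels. Per the methods, the authors aligned reads to GRCm38/mm10 with TopHat2 and counted them by strand with HTSeq-count, whereas the submitters' processing notes name HISAT2, HTSeq and DESeq2; the deposited counts are whole numbers per gene without normalization. A TPM table, also made by the authors, holds counts per gene length scaled to the same total in every sample (largest relative deviation from this formula 3.3e-07) and keeps no depth. Gene positions matched the RefSeq GRCm38.p6 table for 99.9% of the genes with a shared symbol. Reads shared by closely related genes may be counted for the wrong one.

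Members were selected on CPM without further scaling. Counts were filtered with filterByExpr (13921 genes left), scaled by TMM (factors 0.949 to 1.03) and fitted with a mean per group over all 8 samples by the quasi-likelihood test of edgeR 4.0.16 (R 4.3.3); a gene was called at 1.5-fold and a Benjamini-Hochberg adjusted p under 0.05. The 2 samples of each group differed by more than sampling noise (chi-square per degree of freedom 1.46 to 1.57) and were kept as separate samples. The test was tested on simulated data with known changes. Alternatives were DESeq2 1.42.0, limma 3.58.1 on log2(TPM + 1) and log2(TPM + 0.1), other scalings, filters, thresholds and spreads, the replicate number as a block, and leaving out each sample. The members and gene lists were chosen with earlier results of these data known. Named were the 12 members with the highest level and the 12 with the largest ratio in *Arid1a* KO vehicle, the 8 largest falls and rises called in WT tumors, members of the gene lists or functional groups, and genes next to each threshold. *Pcna*, *Mki67*, *Atf4*, *Krt8*, *Lcn2*, *Tfrc*, *Cd68*, *Cxcl3*, *Cxcl5*, *Gm30215*, *Gm45916*, *Eldr*, *Fbxo48* and *Hyal3* were named after their values were seen. No promoter sequence of a member on chromosome 18 was used. A few genes that the naming rule selects are not reported here.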

Additional observations from a re-analysis of the deposited data

Results flagged for a closer look

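For 9 members both WT JSH-23 samples were above both WT vehicle samples, while both *Arid1a* KO JSH-23 samples were below both *Arid1a* KO vehicle samples. The fall in *Arid1a* KO tumors is part of the rule that chose the members, and the difference between the genotypes was not tested. The log2 fold changes in WT tumors were 0.836 for *Cpeb2* and 0.60 for *Extl1*, both called, and 0.383 for *Slc6a9*, 0.383 for *Nfatc2ip*, 0.316 for *Slc20a1*, 0.209 for *Herpud1*, 0.173 for *Psmb9*, 0.142 for *Ykt6* and 0.137 for *Cdr2l*, which were not past 1.5-fold. Groups of 2 samples were too small for a test of single outlying samples.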

How the results depend on the processing

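The number of members was 283 with a ratio of at least 1.5, 64 with at least 2 and 284 with a floor of 1 CPM, and between 131 and 179 when 1 sample was left out. The count of members lower in WT tumors stayed between 56 and 96 in all but 2 alternatives, 37 with a coefficient of variation of 0.2 and 109 when only non-overlapping samples were required (chosen after seeing the data), and between 62 and 70 with 1 WT sample left out. The count of members higher was 1 with at least 10 counts in every sample and with limma on log2(TPM + 0.1), 0 with limma on log2(TPM + 1) and with a coefficient of 0.2, 6 without the fold threshold, 9 by non-overlapping samples, and 1 to 2 with 1 WT sample left out. The median log2 fold change of the members was -0.617 with at least 10 counts in every sample, -0.679 and -0.532 with limma on log2(TPM + 0.1) and log2(TPM + 1), -0.649 without scaling, -0.602 over protein-coding members (chosen after seeing the data) and between -0.66 and -0.601 with 1 WT sample left out, so it kept its sign throughout. Small changes that turned sign, none past a threshold, were those of *Gm3336* (-0.015 and -0.014 with limma) and *Star* (-0.004 with at least 10 counts, -0.029 and -0.019 with limma). With 1 WT sample left out, *Gm3336* ranged from -0.067 to 0.129, *Artn* from -0.106 to 0.039, *P2rx3* from -0.259 to 0.095, *Star* from -0.125 to 0.171, *Sema3g* from -0.468 to 0.128 and *Snx32* from -0.343 to 0.146. Where no value above shows a cause, the cause was not tested. Same-numbered samples did not deviate together (correlations -0.096 to 0.04, -0.004 between the WT groups), so the numbers were not taken as pairs. With the replicate block 70 members were lower and 2 higher, with a median of -0.639, and the block changed no call of a named member. Depth limits the members near 3 counts, such as *Gm39423*.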
